A study of Mus musculus with 6 samples.

Results

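Mitochondrial solute carriers, the Slc25 family, are proteins of the inner mitochondrial membrane that move metabolites between the cytosol and the matrix. The genes described here were those whose single symbol in the platform annotation starts with Slc25a, together with Ucp3, an uncoupling protein of the same family, each read from its probe set of highest mean over the arrays. This gave 34 genes out of 12393 with a single-symbol probe set, and 67 probe sets in all. Ucp2 was also named in the rule and is not analysed here, since no probe set carried it as its single symbol in the annotation used.

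Carriers of this family share a fold of membrane-spanning helices and exchange one solute for another. They bring ADP and phosphate in for ATP synthesis, pass acylcarnitines, coenzyme A and organic acids for fuel oxidation, and supply the matrix with amino acids, nucleotides, iron and cofactors. The uncoupling proteins among them let protons or fatty acid anions cross, and Ucp1 does so for heat production in brown fat.

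Aorta RNA of C57BL/6J mice was measured on 6 Affymetrix arrays, 3 for mice on a high fat diet and 3 for mice on regular chow, each from 3 pooled aortas that had been cleared of adventitia and surrounding fat. No group carried a genetic change, and the sources used here do not state what either diet contained. Feeding with high fat lasted 16 to 18 weeks. It started at 10 weeks of age for high fat replicates 2 and 3, whereas high fat replicate 1 is labelled with an age of 16 to 20 weeks and no sex. The other 5 samples are labelled male. The age of chow replicates 2 and 3 was 26 to 28 weeks, the age that high fat replicates 2 and 3 reach by the end of their diet, and chow replicate 1 has no age. The labelled ages of replicate 1 therefore do not allow a check that the diets were matched for age. The pools are described as independent, which makes n = 3 pools per diet throughout, and precision is limited by this number.

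The values are MAS5 signals in arbitrary units, with a trimmed mean of 150.05 on every array, with array medians between 58.3 and 66.6. The smooth muscle markers of the aortic wall were present on all arrays, with 11 of 11 past the filter on low signals and a summed signal of 29780 to 36030 on chow and 30450 to 31590 on high fat diet. Brown adipocyte markers were present too, with 9 of 11 past the filter and a summed signal of 6861 to 9057 on chow and 10630 to 12860 on high fat diet. Cardiac muscle markers varied within each diet, with 14 of 16 past the filter and a summed signal of 1220 to 4822 on chow and 1282 to 9405 on high fat diet. Macrophage markers (11 of 12 past the filter) summed to 2485 to 3131 on chow and 3238 to 5481 on high fat diet, and endothelial markers (11 of 12) to 1987 to 2119 and 2172 to 2628. Summed signals are over all listed genes on the arrays, past the filter or not. In pooled tissue RNA, fewer cells of a type and less RNA per cell cannot be told apart.

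The comparison of the diets asked which carrier transcripts differed in the aorta after high fat feeding. Of the 34 genes, 30 passed a filter on low signals (a mean above about 40.7 units) and entered the test. None passed an adjusted p of 0.05 in limma, where p-values were adjusted over all 13575 probe sets kept, and over all genes with 1 probe set each the share past this threshold was 0.0600%. The smallest p among them belonged to Slc25a42, which brings coenzyme A into mitochondria, at about 2 times the chow signal, followed by Slc25a20, the carnitine and acylcarnitine carrier. At an unadjusted p under 0.05 there were 4 genes with a higher mean log2 value on high fat diet (13.3% of the 30, against 4.28% of all genes tested) and 1 with a lower one (against 2.71%). The 3 arrays of the high fat diet lay above all 3 chow arrays for 5 of the 30 carriers, 16.7%, against 6.79% of all genes, and below them for 1, against 5.78%.

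**Figure D1:**
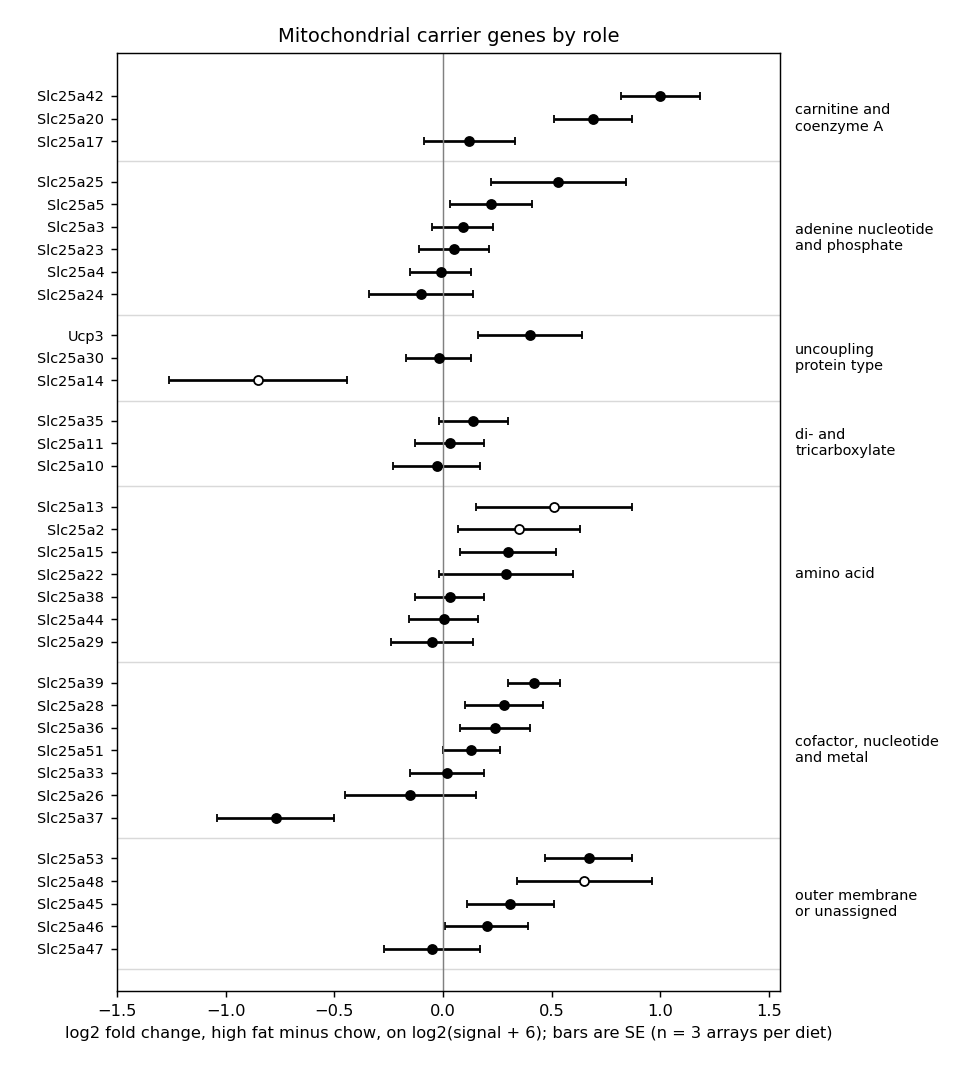
Log2 fold change of each of the 34 carrier genes (horizontal axis, high fat minus chow, on log2(signal + 6)) by role, with SE bars and n = 3 arrays per diet. Open symbols are the 4 genes not past the filter. Slc25a42 lies at 1.0 and Slc25a20 at 0.69, whereas Slc25a4 lies at -0.01.

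Fold changes are differences of log2(signal + 6) and understate the change of low genes. The median over the 30 carriers was 0.12, with a range from -0.77 to 1.0, and the median over all 8327 genes tested was 0.005. Counted by the sign of this difference, 22 of the 30 were higher on high fat diet, 73.3%, against 50.8% of all genes. All counts of higher and lower genes below are by this sign, which for genes near 0 can differ from that of the mean signals. This split depended on the scaling, since with equal array medians it was 18 higher and 12 lower, against 43.4% higher for all genes. Changes under 0.1 in either direction were seen for 11 carriers, and changes over 0.5 for 5. The SE of a carrier's fold change was 0.18 in the median and 0.12 to 0.31 in range, and the SD within a diet was typically 15.2% of the mean signal. Without high fat replicate 1 the carriers whose arrays did not overlap with high fat above numbered 9 (against 12.93% of all genes, since fewer arrays overlap less), without chow replicate 1 there were 8 (10.33%) and without chow replicate 3 there were 11 (13.39%). Without high fat replicate 1 and chow replicate 3 together, the arrays of each diet lowest in cardiac markers, there were 14 (19.98%).

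**Figure D2:**
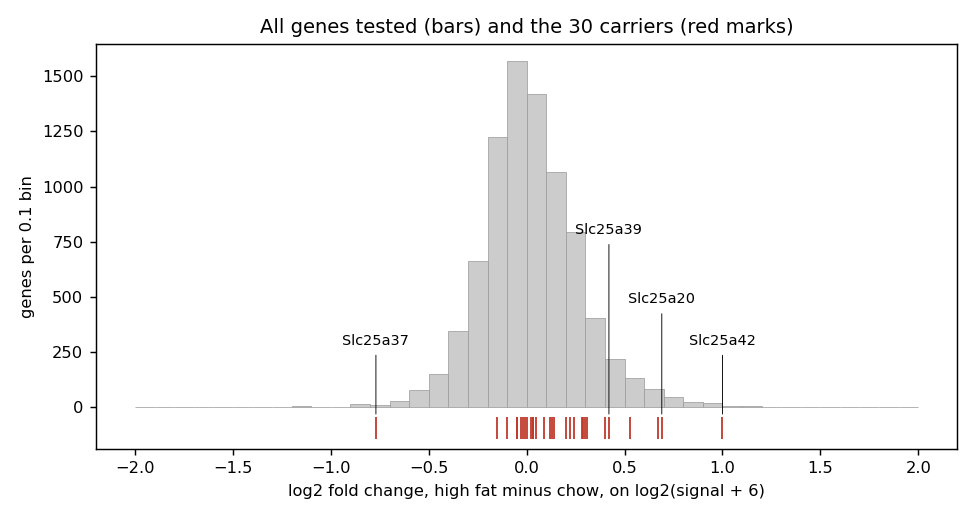
Histogram of the log2 fold change, high fat minus chow, of the 8327 genes tested (grey bars, genes per bin) with the 30 carriers past the filter as red marks under the axis. The carriers spread across the middle of the distribution, and 4 lie above its 95th percentile of 0.46 and 1 below its 5th percentile of -0.35.

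The carriers that handle carnitine and coenzyme A had the largest median among the roles, 0.69 over 3 genes, although a role of 3 genes has no test of its own. Slc25a42 had signals of 123, 164 and 158 in chow replicates 1, 2 and 3 and of 316, 339.9 and 250.4 in high fat replicates 1, 2 and 3. Each high fat array lay above each chow array, and the highest chow value was well under the lowest high fat value. Mean signals (± SD, n = 3) were 148 ± 22.2 for chow and 302 ± 46.4 for high fat, and their log2 fold change was 1.0 ± 0.18 (± SE, limma, adjusted p = 0.150). The change did not pass, and over the 19 alternatives it ranged from 0.87 to 1.12 with an adjusted p from 0.0866 to 0.674. It was measured by 1 probe set.

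Slc25a20 exchanges acylcarnitines for free carnitine, the step between the carnitine palmitoyltransferases of the outer and inner membranes. Its signals were 799, 515 and 558 in chow replicates 1, 2 and 3 and 837, 1114 and 1048 in high fat replicates 1, 2 and 3. The diets did not overlap, but chow replicate 1 and high fat replicate 1 were close to each other. The means were 624 ± 153 and 999.6 ± 145, a log2 fold change of 0.69 ± 0.18 (limma, adjusted p = 0.452), which did not pass. A second Slc25a20 probe set, which can bind related transcripts, had signals of 264, 273 and 329.8 on chow and 401, 464 and 433 on high fat diet, again without overlap, and its log2 fold change was 0.58 ± 0.15 (limma, adjusted p = 0.445). Slc25a17, a carrier of coenzyme A and other cofactors in the peroxisomal membrane, had 101 ± 13.4 and 112 ± 27.3, and its arrays overlapped (log2 fold change 0.12 ± 0.21).

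The enzymes on either side of these carriers were taken from lists of the carnitine shuttle and of coenzyme A synthesis. Of 6 genes listed for the carnitine shuttle, 4 had a single-symbol probe set, and Cpt1b and Cpt1c did not. All 4 had a higher log2 mean on high fat diet (median 0.19), against 50.8% of all genes, and none passed the adjusted threshold. In limma 1 of them was under 0.05 before adjustment with high fat above, against 4.28% of all genes. That gene was Cpt2, the carnitine palmitoyltransferase of the inner membrane, with 374, 334 and 473 on chow and 618, 767 and 641 on high fat diet (log2 fold change 0.78 ± 0.16, limma, adjusted p = 0.299). Cpt1a, the liver type enzyme of the outer membrane, had a log2 fold change of 0.08 ± 0.15. Of 7 genes listed for coenzyme A synthesis, 5 had a single-symbol probe set. Of these 5, 4 had a higher log2 mean (median 0.29), and 0 were under 0.05 in limma before or after adjustment. Pank1, a pantothenate kinase, had the largest log2 fold change of these, 0.39 ± 0.20.

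**Figure D3:**
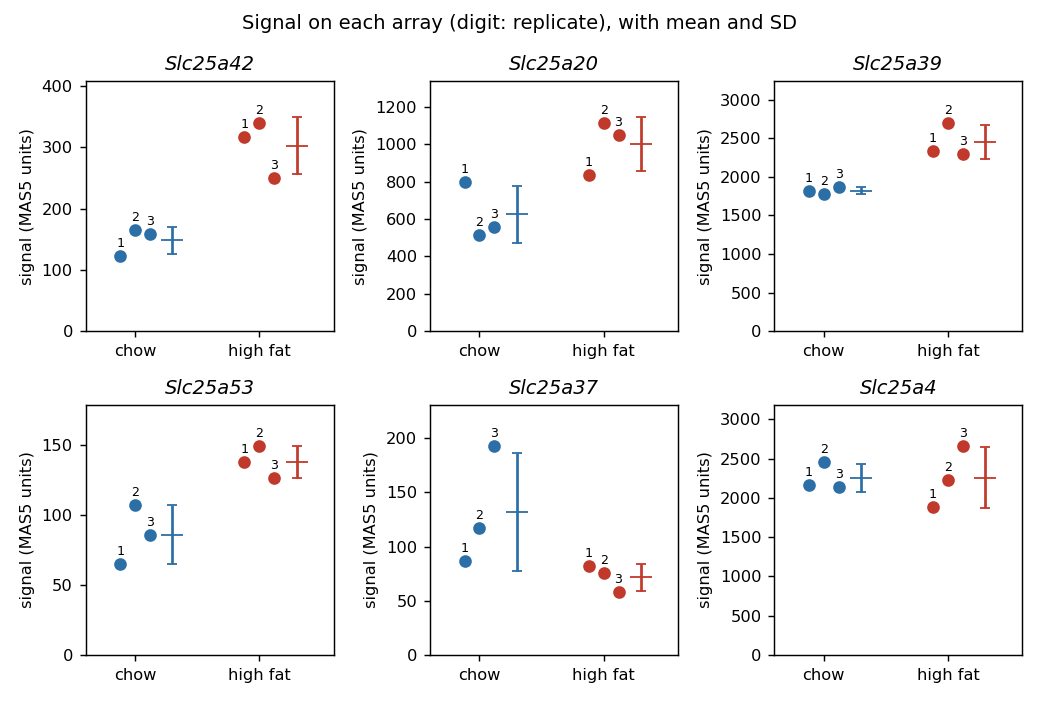
MAS5 signal on each array (vertical axis, from 0) of 6 carrier genes on chow (blue) and high fat diet (red), with the replicate number at each point and the mean and SD beside it. The diets are separate for Slc25a42, Slc25a20, Slc25a39 and Slc25a53 with high fat above, separate for Slc25a37 with high fat below, and overlap for Slc25a4.

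The promoters of Slc25a42 and Slc25a20 are shown with that of Slc25a4, whose signal hardly differed between the diets, because the first pair of genes had non-overlapping arrays in the same role. Each is the stretch of 250 bases before the RefSeq start site (GRCm38.p6), written 5′ to 3′ on the strand of the gene. Capitals mark matches, on either strand, to GGGCGG (the GC box), AGGTCA (the half-site of nuclear receptors) or TGCGCA (the core of the NRF-1 motif). The windows lie at chr8:70212282-70212531 (minus strand) for Slc25a42, at chr9:108661886-108662135 (plus strand) for Slc25a20 and at chr8:46211063-46211312 (minus strand) for Slc25a4.
Slc25a42: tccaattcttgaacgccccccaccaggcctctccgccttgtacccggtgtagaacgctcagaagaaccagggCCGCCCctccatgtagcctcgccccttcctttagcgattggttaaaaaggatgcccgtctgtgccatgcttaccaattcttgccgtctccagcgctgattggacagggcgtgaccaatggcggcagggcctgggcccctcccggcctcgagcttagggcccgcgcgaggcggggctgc
Slc25a20: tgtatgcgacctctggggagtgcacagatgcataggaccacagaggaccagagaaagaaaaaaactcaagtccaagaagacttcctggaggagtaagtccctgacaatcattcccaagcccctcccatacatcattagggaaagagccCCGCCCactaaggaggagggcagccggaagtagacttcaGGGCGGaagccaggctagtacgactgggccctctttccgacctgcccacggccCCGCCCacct
Slc25a4: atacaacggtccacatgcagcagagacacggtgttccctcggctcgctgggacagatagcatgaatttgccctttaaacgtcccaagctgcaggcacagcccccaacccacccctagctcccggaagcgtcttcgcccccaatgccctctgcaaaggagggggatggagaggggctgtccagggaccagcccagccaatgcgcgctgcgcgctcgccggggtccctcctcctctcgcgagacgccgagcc

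The Slc25a42 window held 1 match to the GC box, the Slc25a20 window 3 and the Slc25a4 window 0. None of these windows held AGGTCA or TGCGCA in either direction, which says only that these letters are not in them. RefSeq windows were at hand for 27 of the 34 carriers, 36 windows in all, and 28 of these (77.8%) held GGGCGG, against 42.6% of 21262 windows of protein-coding genes and 32.7% of all 32851 windows. AGGTCA was found in 4 of the 36 (11.1%, against 12.8% of protein-coding windows and 14.0% of all) and TGCGCA in 2 (5.56%, against 8.06% and 6.43%). Counted by gene, 21 of the 27 carriers had a window with GGGCGG and 4 had one with AGGTCA. All 5 carriers whose arrays did not overlap with high fat above had a window with GGGCGG, and 2 had one with AGGTCA. These 5 were picked by their signals, and no test of the motifs was run. A match is a run of letters and not a binding site.

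Carriers of adenine nucleotides and phosphate supply ATP synthase and export its product, and here all arrays of the diets overlapped. Of 6 genes in this role, 4 had a positive and 2 a negative log2 fold change. The median log2 fold change was 0.07, and in limma 0 were under 0.05 before or after adjustment. Slc25a4, the ADP/ATP translocase of heart and muscle, had 2166, 2454 and 2139 on chow and 1886, 2233 and 2656 on high fat diet. High fat replicate 1 was the lowest and high fat replicate 3 the highest of the 6 arrays. The log2 fold change was -0.01 ± 0.14, while the mean signals were 2253 ± 175 on chow and 2258 ± 386 on high fat diet. Its sign also turned with quantile normalization, so that it has no direction. Its other probe sets past the filter had 0.01 and -0.05.

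Slc25a5, the more widely expressed ADP/ATP translocase, had 1228, 1928 and 2033 on chow and 1768, 1835 and 2366 on high fat diet, and its log2 fold change was 0.22 ± 0.19 (limma, adjusted p = 0.851). Its low value lay in chow replicate 1, and without that array the log2 fold change was -0.01. Leaving out high fat replicate 3 gave 0.09, and leaving out chow replicate 3 gave 0.36. The other 7 Slc25a5 probe sets past the filter ranged from -0.18 to 0.22, most of them with a suffix for probes that can bind related transcripts. Slc25a3, the phosphate carrier, had 2362 ± 219 and 2531 ± 362 (0.09 ± 0.14). Among the carriers of ATP-Mg and phosphate, which calcium regulates, Slc25a25 had 30.8, 71.9 and 67.8 on chow and 57.9, 101 and 88.0 on high fat diet (0.53 ± 0.31, limma, adjusted p = 0.774), which depended on the arrays used. Leaving out chow replicate 1 gave 0.19, whereas leaving out high fat replicate 1 gave 0.75 and chow replicate 2 gave 0.73. With high fat replicate 1 and chow replicate 3 both left out, the value was 0.91. Slc25a23 had a log2 fold change of 0.05 ± 0.16 and Slc25a24, at 54.5, 40.2 and 42.2 on chow and 41.2, 35.2 and 50.4 on high fat diet, of -0.10 ± 0.24.

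Among the uncoupling proteins and their relatives, Ucp3, which is expressed in muscle and brown fat, had 73.8, 73.7 and 107 on chow and 80.3, 134 and 131.5 on high fat diet. High fat replicate 1 lay within the chow range and the other high fat arrays above it. The log2 fold change was 0.40 ± 0.24 (limma, adjusted p = 0.777), and it was 0.63 without high fat replicate 1. High fat replicate 1 and chow replicate 3 were also the arrays of each diet lowest in cardiac muscle markers, and without this pair the Ucp3 value was 0.80 (adjusted p = 0.300, limma). Slc25a30, a relative known from kidney, had 151 ± 11.1 and 149.5 ± 7.4. Slc25a14, known from brain, did not pass the filter, with 42.5, 49.9 and 35.7 on chow and 32.7, 30.8 and 7.5 on high fat diet. Its arrays did not overlap, with a log2 fold change of -0.85 ± 0.41 in the fit without a filter (unadjusted p = 0.0684, limma), and no detection calls were at hand for signals this low.

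Ucp1, the brown fat member of the family, was outside the rule and stood on these arrays at 2593, 2122 and 2724 on chow and 3664, 3623 and 3154 on high fat diet, without overlap (log2 fold change 0.49 ± 0.13, limma, adjusted p = 0.445). Mtch1 and Mtch2, family members of the outer membrane, had log2 fold changes of 0.21 ± 0.15 and 0.14 ± 0.15 with overlapping arrays.

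Carriers of organic acids showed little difference. Slc25a10, the dicarboxylate carrier, had 174, 216 and 160.2 on chow and 139, 208 and 196 on high fat diet, with a difference of -0.03 ± 0.20 on the log2 scale. Slc25a11, which exchanges oxoglutarate for malate in the malate-aspartate shuttle, had 280.1 ± 24.4 and 287 ± 42.3 (0.03 ± 0.16), and Slc25a35, whose substrates are less settled, had 144 ± 19.5 and 159 ± 10.7 (0.14 ± 0.16). Of the enzymes around these carriers, 2 of 6 listed for the malate-aspartate and glycerol phosphate shuttles had non-overlapping arrays with high fat above (6.79% of all genes did). They were Gpd1 and Gpd2, the cytosolic and mitochondrial glycerol phosphate dehydrogenases, with log2 fold changes of 0.81 ± 0.21 and 0.74 ± 0.20, and neither passed the adjusted threshold in limma. Of the matrix enzymes of the malate-aspartate shuttle, Mdh2 had 0.18 ± 0.13 and Got2 had -0.02 ± 0.13.

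Of 7 amino acid carriers, 5 passed the filter, and for each of these the arrays of the diets overlapped and the limma p was over 0.05 before and after adjustment. Slc25a15, the ornithine carrier of the urea cycle, had 42.8, 39.8 and 58.0 on chow and 58.8, 57.0 and 59.8 on high fat diet. Chow replicate 3 was level with the high fat arrays. The log2 fold change was 0.30 ± 0.22, with 0.45 without chow replicate 3, 0.21 without chow replicate 2 and 0.15 with its probe sets averaged. Its second probe set did not pass the filter and had 0.001 ± 0.25 in the fit without one. Slc25a22, a glutamate carrier, had 197 ± 83.3 and 233 ± 67.4, with a spread within each diet wider than the difference. Slc25a29, a carrier of basic amino acids, had 132, 190.3 and 196 on chow and 186, 149 and 161 on high fat diet (-0.05 ± 0.19). Slc25a38, the glycine carrier of heme synthesis, and Slc25a44, the carrier of branched-chain amino acids in brown fat, had 0.03 ± 0.16 and 0.002 ± 0.16. Slc25a44 stood at 165 on both diets, and its other probe sets had 0.22 and -0.04. Slc25a13, the aspartate and glutamate carrier citrin, and Slc25a2, a second ornithine carrier, did not pass the filter, with log2 fold changes of 0.51 ± 0.36 and 0.35 ± 0.28 in the fit without one.

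Carriers of cofactors, nucleotides and metals held both a higher and a lower gene without overlap. Slc25a39, a carrier that brings glutathione into mitochondria, had 1815, 1781 and 1870.4 on chow and 2338, 2701 and 2300.1 on high fat diet. The chow arrays were close together and all high fat arrays lay above them, with means of 1822 ± 45.1 and 2446 ± 221 and a log2 fold change of 0.42 ± 0.12 (limma, adjusted p = 0.470). This probe set carries a suffix for probes that can bind related transcripts. The other Slc25a39 probe sets had 0.74 ± 0.30 and 0.08 ± 0.23 with overlapping arrays, so that the probe sets of this gene differed in size.

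Slc25a37, mitoferrin 1, imports iron into mitochondria and is abundant in developing red cells. It had 86.5, 117 and 192.5 on chow and 82.2, 75.3 and 57.9 on high fat diet, the lowest fold change among the 30, at -0.77 ± 0.27 (limma, adjusted p = 0.586). The diets did not overlap, but chow replicate 1 and high fat replicate 1 nearly met, and chow replicate 3 stood far above the rest. Without chow replicate 3 the log2 fold change was -0.47, and without high fat replicate 3 it was -0.63. Alas2, the red cell enzyme of heme synthesis, had 217.5, 301 and 703 on chow and 204, 189 and 76.3 on high fat diet, with its highest value in chow replicate 3 and its lowest in high fat replicate 3, as for Slc25a37 (log2 fold change -1.28 ± 0.43, limma, adjusted p = 0.557). Of 17 red cell genes listed after these values were seen, 12 were on the arrays and 7 passed the filter, with 4 higher and 3 lower on high fat diet and a median of 0.04. The summed signal of the 12 on the arrays was 1153 to 2113 on chow and 1085 to 1354 on high fat diet, highest in chow replicate 3. Hba-a1, an alpha globin, was at 7.4 to 30.5 on all arrays by a probe set that did not pass the filter. Probe sets with several gene symbols were not used, so this value may not stand for globin RNA as a whole. The part of red cell RNA in the Slc25a37 values was not tested.

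Slc25a28, mitoferrin 2, which serves iron import in other tissues, had 152.5, 154.5 and 196 on chow and 186, 241 and 188 on high fat diet, with 1 chow array inside the high fat range (log2 fold change 0.28 ± 0.18, and 0.16 without high fat replicate 2). Slc25a36, a carrier of pyrimidine nucleotides, had 199.6, 157 and 189 on chow and 199.5, 235 and 211 on high fat diet (0.24 ± 0.16, and 0.14 without chow replicate 2). Its second probe set went the other way, at -0.31 ± 0.21 with high fat below chow on every array, so that the gene has no common direction. Slc25a33, a carrier of the same kind, had 0.02 ± 0.17, and Slc25a51, the NAD carrier, had 748 ± 70.5 and 816 ± 33.9 (0.13 ± 0.13). Slc25a26, which imports the methyl donor S-adenosylmethionine, had 56.7, 42.6 and 44.6 on chow and 31.9, 69.2 and 33.3 on high fat diet, with both the highest and the lowest array on high fat diet (-0.15 ± 0.30).

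Among carriers of the outer membrane or without a settled substrate, Slc25a53 had 65.2, 107 and 85.8 on chow and 138, 149 and 126 on high fat diet. The diets did not overlap, and the log2 fold change was 0.67 ± 0.20 (limma, adjusted p = 0.512). Slc25a45 had 92.3, 109 and 104 on chow and 113, 165 and 110.1 on high fat diet, separate by a margin of about 1 unit, with a log2 fold change of 0.31 ± 0.20. Without high fat replicate 2, its highest array, this was 0.13. Slc25a46, a protein of the outer membrane that takes part in membrane dynamics, had 0.20 ± 0.19, and Slc25a47, known from liver, had 99.6, 83.0 and 123 on chow and 113, 109 and 73.2 on high fat diet (-0.05 ± 0.22). Slc25a48 was under the filter at 7.3 ± 3.5 and 15.0 ± 5.5.

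Several probe sets of 1 gene gave a check within the arrays. Of 16 carriers with more than 1 probe set, 11 had more than 1 past the filter, and in 6 of these the probe sets differed in sign. Slc25a20 was a gene where both probe sets had the same sign and no overlap. Of the probe sets used for the 30 carriers tested, 4 carry a suffix for probes that can bind related transcripts. They are those of Slc25a4, Slc25a5, Slc25a39 and Slc25a47.

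Other transport genes of mitochondria were read from lists for comparison. None of their members passed the adjusted threshold in limma. Of 11 other inner membrane transporters and related proteins, 8 had a higher log2 mean (72.7%, median 0.12, against 50.8% of all genes), and 1 of them, Letm1, a cation exchanger, had an unadjusted p under 0.05, with a log2 fold change of 0.42 ± 0.17. Mpc1, a subunit of the pyruvate carrier, had 0.10 ± 0.17. The 3 porins, the channels of the outer membrane, had log2 fold changes of 0.01 to 0.21 with overlapping arrays. Of 25 protein import genes, 18 had a higher log2 mean (72.0%, median 0.18). At an unadjusted p under 0.05 with high fat above there were 6 of them (24.0%, against 4.28% of all genes). Among these were Dnajc15, at 0.50 ± 0.16, and Hspa9, the matrix chaperone of the import motor, at 0.43 ± 0.15. Of 82 genes of oxidative phosphorylation, taken by the start of their symbols, 76 had a higher log2 mean (92.7%, median 0.20). Of 74 mitochondrial ribosomal proteins 56 did (75.7%, median 0.18), and both shares stand against 50.8% of all genes. Cox7a1 and Cox8b are in the oxidative phosphorylation list and also among the brown adipocyte markers. Over the 30 carriers the median was 0.12, and no test of the carriers against these lists was made.

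**Figure D4:**
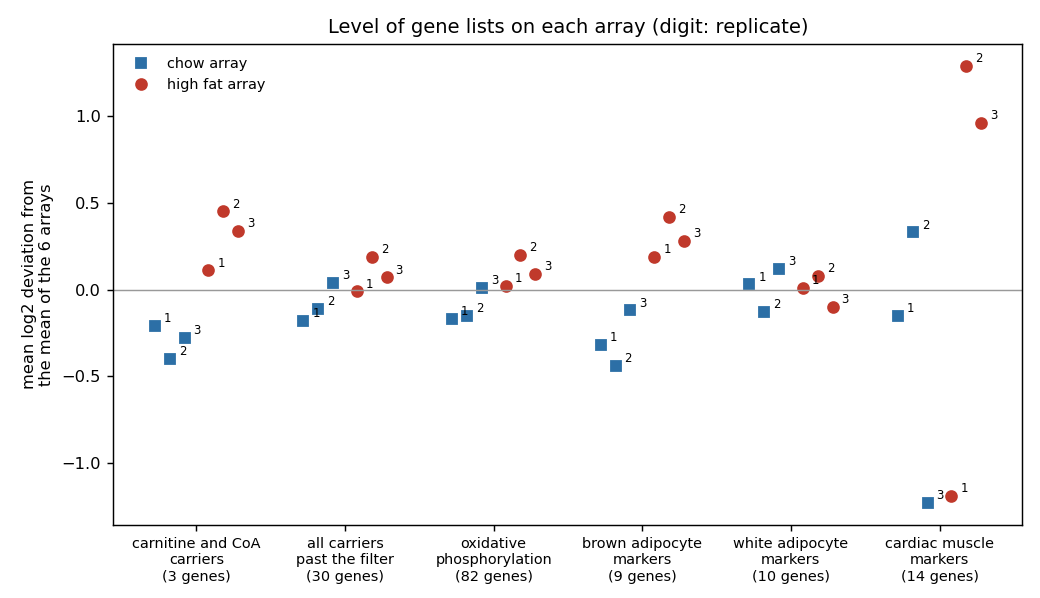
Log2 level relative to the average over all 6 arrays (vertical axis), averaged over the genes of each of 6 lists, for chow (squares) and high fat (circles) arrays with the replicate number beside each point. The carnitine and coenzyme A carriers, the brown adipocyte markers and, by a small margin, oxidative phosphorylation are separate by diet. Cox7a1 and Cox8b are in both the brown adipocyte and the oxidative phosphorylation list. The carriers as a whole overlap, and the cardiac markers differ most within a diet.

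Across arrays the mean level of the 30 carriers, as a log2 deviation, was -0.18, -0.11 and 0.04 in chow replicates 1, 2 and 3 and -0.01, 0.19 and 0.07 in high fat replicates 1, 2 and 3. Chow replicate 3 thus lay above high fat replicate 1, and the diets overlapped. Oxidative phosphorylation genes had -0.17, -0.15 and 0.01 on chow and 0.02, 0.20 and 0.09 on high fat diet, separate by a small margin. The levels of protein import genes and of mitochondrial ribosomal proteins did not overlap either. The 3 carnitine and coenzyme A carriers had -0.21, -0.40 and -0.28 on chow and 0.11, 0.45 and 0.34 on high fat diet, with no overlap. This average rests on Slc25a42 and Slc25a20, each without overlap by itself, whereas Slc25a17 overlapped, so it adds nothing to their values. Brown adipocyte markers had -0.32, -0.44 and -0.12 on chow and 0.19, 0.42 and 0.28 on high fat diet, also with no overlap. All 9 past the filter had a higher log2 mean on high fat diet (median 0.50), against 50.8% of all genes. So did all 14 cardiac markers past the filter (median 0.68), 10 of 11 macrophage markers (median 0.61) and 10 of 11 endothelial markers (median 0.24). Of 11 smooth muscle markers 2 did (median -0.13). White adipocyte markers had between -0.13 and 0.12 on chow and between -0.10 and 0.08 on high fat diet. That average held genes of both directions, with 8 of the 10 past the filter higher and 2 lower (median 0.11). The lower ones were Retn, the adipokine resistin (-1.06 ± 0.16, limma, adjusted p = 0.0435), and Car3 (-0.91 ± 0.14), both without overlap. Lipe, the hormone-sensitive lipase, stood at 0.54 ± 0.18. Under the filter, Lep (leptin) had 7.8, 16.0 and 28.2 on chow and 111, 66.7 and 56.2 on high fat diet. In the fit without a filter Lep had 1.89 ± 0.39 and Agt, also under it, -0.003 ± 0.22. Skeletal muscle markers, with 6 of 12 past the filter, had a median of -0.59. For 3 of the 6 (Tnnc2, Pvalb and Atp2a1, at -1.45, -1.21 and -0.73) high fat lay below chow on every array, against 5.78% of all genes. The summed signal of all 12 was 551.5 to 1235 on chow and 469 to 787 on high fat diet. Cardiac muscle markers were at -1.19 in high fat replicate 1 and 1.29 in high fat replicate 2, and at -1.23 in chow replicate 3 and 0.33 in chow replicate 2. The part of adipocytes, skeletal and cardiac muscle, macrophages and endothelium in the carriers' values was not tested. Without the array of each diet lowest in cardiac markers, Slc25a42 had a log2 fold change of 1.01 and Slc25a20 of 0.75, close to those on all arrays. On the arrays left, cardiac markers were at -0.15 and 0.33 on chow and at 1.29 and 0.96 on high fat diet. Leaving out this pair thus did not balance cardiac markers between the diets, and it cannot test their part in these values.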

How the data were processed

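The authors deposited linear signal intensities for each probe set on every array, made with MAS5 per the submitters' processing notes. The version and options of MAS5 are not stated in the labels. Of 22690 probe sets, 64 controls were dropped. The platform annotation gave 1 symbol for 20380 of 22626 probe sets, several for 691 and none for 1555. By gene ID 20351 matched a current gene table and 0 symbols changed.

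Signals were transformed as log2(signal + 6), the pseudocount lying at about the 10th percentile (5.9). Probe sets with a mean above the 40th percentile were kept (13575). High fat was tested against chow by limma 3.58.1 (R 4.3.3) through lmFit and eBayes with trend, two-sided, and p-values were adjusted by Benjamini-Hochberg over all probe sets kept. No test was run over the carriers as a set, and genes not past the filter are given from a fit without it. The steps were tested on simulated data. No detection calls were used, and 42.0% to 46.3% of signals on an array lay under 50.

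The carriers and gene lists were chosen with earlier results of these data known, and the red cell list after these values were seen. Named with each array's value were the 10 carriers of smallest p among those higher on high fat diet, the 6 of smallest p among the 8 that were lower, and Ucp3, Slc25a4, Slc25a5, Slc25a20 and Slc25a42. Slc25a14 and the genes of other lists given by array were added after their values were seen. Alternatives covered the pseudocount (1 or 21), the filter (none, or the 60th percentile), scaling (quantile or equal medians), the variance model (without trend, or robust), weighted arrays, a replicate block, each array left out, both arrays low in cardiac markers left out, a gene's probe sets averaged, and 1 probe set per gene. Promoter windows come from RefSeq (GRCm38.p6), and motifs were searched on both strands. Tables were handled in pandas 2.3.3 and numpy 2.4.6 under Python 3.11.15, with plots from matplotlib 3.10.9.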

Additional observations from a re-analysis of the deposited data

How the results depend on the processing

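Under all 19 alternatives the count of carriers past an adjusted p of 0.05 was 0 in limma, with 4 to 7 at an unadjusted p under 0.05 against 5 on all arrays. The median over the carriers stayed above 0, from 0.05 to 0.20. Slc25a42, Slc25a20, Slc25a39, Slc25a53, Ucp3 and Slc25a37 kept their sign in each. Over all probe sets 10 passed, and this became 6 with no filter, 6 with a gene's probe sets averaged, 6 with 1 probe set per gene, 5 with no variance trend, 45 without the array of each diet lowest in cardiac markers, and 5 to 16 with single arrays left out. With the replicate block 5 passed, while 0 carriers did. Deviations of same-numbered arrays correlated at 0.03, 0.17 and -0.11, so the numbers were not taken as a pairing. Carriers whose arrays did not overlap with high fat above numbered 5 to 11 with single arrays left out and 14 without the cardiac-low pair, and with high fat below 1 to 2 and, with no filter, 2 (Slc25a14 added). Fewer arrays overlap less by construction. Signs turned for genes near 0, where the cause was not tested. They also turned for Slc25a36 and Slc25a5, at 0.24 and 0.22 by their probe sets of highest mean. For Slc25a36 this was with its second probe set, at -0.31, averaged in, and for Slc25a5 without chow replicate 1, its low array. With a gene's probe sets averaged the log2 fold change was 0.07 for Slc25a10, 0.09 for Slc25a26, -0.03 for Slc25a36 and 0.05 for Slc25a4. Without the cardiac-low pair it was 0.06 for Slc25a10 and 0.08 for Slc25a4, and with quantile normalization 0.01 for Slc25a4. With single arrays left out the range was -0.13 to 0.15 for Slc25a10, -0.22 to 0.02 for Slc25a24, -0.47 to 0.02 for Slc25a26, -0.22 to 0.05 for Slc25a29, -0.13 to 0.11 for Slc25a4, -0.18 to 0.13 for Slc25a47 and -0.01 to 0.36 for Slc25a5. Signals near the filter cannot be told from background without detection calls, and 3 pools per diet limit every comparison. Such signals include those of Slc25a24, Slc25a26, Slc25a15 and the second Slc25a36 probe set.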
